A study of Zea mays with 12 samples.

Results

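The response of disease-resistant maize (Zea mays) to the Bacillus strain BV-3 was read in 6 of the 12 RNA libraries of the series, the 3 BV-3 and the 3 CK libraries whose labels give the resistance class. The libraries were chosen by these labels, and all 52932 gene models of the deposited table were measured in each of them. CK is taken here as the control without BV-3, since the labels do not spell the abbreviation out. Both groups share the tissue label whole body, poly(A)-selected messenger RNA and strand-specific libraries. The labels used here do not give the name of the maize line, the age of the plants, the dose and route of BV-3 or the time of harvest. The other 6 libraries of the series carry the same 2 treatments in the susceptible class.

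Bacilli that live on roots are known as growth-promoting and protective partners of crop plants, and their contact with the root is known to prime the jasmonate and ethylene branches of defence. WRKY factors, mitogen-activated protein (MAP) kinases and calcium sensors carry such signals inside the cell, and phenylpropanoids, terpenoids and benzoxazinoids are among the defence compounds of maize. Water channels (aquaporins) and nitrate and ammonium transporters carry water and nitrogen from the root into the plant.

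Total counts were 27.0, 30.2 and 29.7 M in CK replicates 1, 2 and 3 and 36.8, 37.4 and 35.1 M in BV-3 replicates 1, 2 and 3, so the BV-3 libraries were the deeper ones. CK replicate 2 stood apart: its log2 expression profile correlated at 0.707 to 0.824 with the other 5 libraries, which correlated at 0.832 to 0.928 among themselves across genes. Its photosystem and light-harvesting transcripts summed to 2466 FPKM (fragments per kilobase of gene model per M mapped fragments), against 28850 and 20347 FPKM in CK replicates 1 and 3 and 17459 to 55827 FPKM in the BV-3 libraries. Genes present in one class and near-absent in the other among the BV-3 libraries were used to check the line. The 3 CK libraries had 93.8 to 97.6% of the 339 resistant-class markers above 1 CPM and at most 1.22% of the 246 susceptible-class markers, the pattern of the BV-3 libraries of the resistant class. Because whole plants were measured in bulk, fewer cells of a type and less RNA per cell cannot be told apart in any value below.

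The quasi-likelihood test of edgeR was run with all 6 libraries, and again without CK replicate 2. The edgeR test called no gene at an adjusted p under 0.05 in either comparison (0.0% of 30730 genes with all 6 libraries and 0.0% of 32280 without CK replicate 2). The smallest adjusted p was 0.483 with all 6 libraries and 0.105 without CK replicate 2. At an unadjusted p under 0.05 there were 1489 higher genes (4.85%) and 1166 lower genes (3.79%) with all 6 libraries, together 8.64% of those tested. Without CK replicate 2 there were 2894 higher genes (8.97%) and 2493 lower genes (7.72%) at that level, together 16.7% of those tested. Of the genes tested in both, 1237 were higher (4.03%) and 953 lower (3.1%) at an unadjusted p under 0.05 in both comparisons. DESeq2, run as an alternative on the same counts, called 871 genes with all 6 libraries, 548 higher (1.78%) and 323 lower (1.05%). Without CK replicate 2 it called 2793 genes, 1557 higher (4.82%) and 1236 lower (3.83%). In both comparisons together it called 528 genes higher and 303 lower, 1.72% and 0.986% of the genes tested in both. Limma-voom with sample quality weights, a second alternative, gave CK replicate 2 a weight of 0.148 against 0.961 to 2.48 for the other 5 libraries and called 7 genes (0.0228%). The genes below are therefore described by their values in every library and by whether the 3 BV-3 and the 3 CK values overlap. Of all genes tested, 7.92% had all 3 BV-3 values above all 3 CK values and 10.1% had them below.

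Named first are the genes whose 3 BV-3 values lay apart from all 3 CK values, whose higher group averaged 5 FPKM or more, and whose p was smallest without CK replicate 2. There were 1066 such candidates above and 1587 below, and the first 10 of each are described; edgeR called none of the 20. In every list of values the 3 CK replicates come first and the 3 BV-3 replicates second, in the order 1, 2 and 3. Log2 differences are BV-3 minus CK with their standard error (SE).

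Water channels and a sugar-splitting enzyme led the higher genes. Aquaporin TIP2-1 (Zm00001eb186570), a water channel of the vacuole membrane, read 14.4, 45.0 and 15.0 FPKM under CK and 97.2, 99.7 and 110 FPKM under BV-3. Its log2 difference was 2.85 ± 0.25 without CK replicate 2 and 2.03 ± 0.55 with all 6 libraries. CK replicate 2 lay closer to the BV-3 libraries than the other CK libraries did, yet the lowest BV-3 value was still above it. Aquaporin PIP1-5 (NewGene_12178), a channel of the plasma membrane family, read 10.0, 28.5 and 9.35 FPKM under CK and 67.7, 122 and 85.5 FPKM under BV-3, a log2 difference of 3.30 ± 0.31 without CK replicate 2 and 2.53 ± 0.55 with it. Cytosolic invertase 1 (Zm00001eb091640), which splits sucrose into glucose and fructose, read 4.78, 18.3 and 4.70 FPKM under CK and 24.3, 34.2 and 23.4 FPKM under BV-3. All 3 of these genes had their highest CK value in replicate 2. Both water channels were among the 7 genes called by voom with quality weights.

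The other higher genes belonged to the clock, to light perception and to lipid and protein metabolism. Circadian clock associated2 (Zm00001eb415770), a MYB factor of the morning loop of the clock, read 11.9, 9.64 and 8.29 FPKM under CK and 732, 295 and 598 FPKM under BV-3, a log2 difference of 5.86 ± 0.70 without CK replicate 2 and 5.85 ± 0.60 with it. It was the largest difference of the 20 genes, and CK replicate 2 lay between the other CK values. A pair of genes annotated as the ultraviolet-B receptor UVR8 were also higher: Zm00001eb367810 read 0.767, 1.25 and 0.750 FPKM under CK and 4.95, 5.05 and 5.29 FPKM under BV-3. The other, Zm00001eb148070, read 1.12, 0.805 and 1.58 FPKM under CK and 15.4, 9.28 and 13.5 FPKM under BV-3. A B-box zinc finger gene (Zm00001eb171840), of a family with many members in light signalling, read 4.00, 1.5 and 4.86 FPKM under CK and 27.2, 19.2 and 23.4 FPKM under BV-3. None of these light and clock genes overlapped between the groups, and CK replicate 2 was the highest CK library for the first UVR8 gene only.

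Palmitoyl-acyl carrier protein thioesterase (Zm00001eb270390), which releases newly made fatty acids in the plastid, read 7.10, 12.6 and 7.41 FPKM under CK and 21.1, 26.0 and 24.0 FPKM under BV-3. Serine carboxypeptidase-like 50 (Zm00001eb358880) was at 2.10, 0.436 and 1.40 FPKM under CK and at 21.0, 14.8 and 18.0 FPKM under BV-3. FCS-like zinc finger 13 (Zm00001eb072690), of a family that binds the energy-sensing kinase SnRK1 in Arabidopsis, was at 0.171, 0.354 and 0.225 FPKM under CK and at 7.94, 5.01 and 12.8 FPKM under BV-3. It rested on 5 to 11 counts in a CK library and on 182 to 420 counts in a BV-3 library.

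Among the lower genes, lipid- and sulphur-related enzymes came first. GDSL esterase/lipase EXL3 (Zm00001eb065120) read 14.5, 2.08 and 21.6 FPKM under CK and 0.519, 0.602 and 0.631 FPKM under BV-3, a log2 difference of -4.85 ± 0.34 without CK replicate 2 and -4.35 ± 0.87 with it. The plastid cysteine synthase (Zm00001eb376900), which makes cysteine from O-acetylserine, read 16.4, 8.84 and 20.3 FPKM under CK and 2.34, 2.16 and 1.94 FPKM under BV-3. Its log2 difference was -2.98 ± 0.24 without CK replicate 2 and -2.73 ± 0.38 with it, and voom with quality weights called it. Molybdenum cofactor sulfurase (Zm00001eb104710), which activates the aldehyde oxidase of the last step of abscisic acid synthesis, read 30, 6.15 and 27.3 FPKM under CK and 4.70, 6.01 and 5.68 FPKM under BV-3. For this gene the groups were separated by little, since CK replicate 2 lay just above the BV-3 values. A 3Fe-4S ferredoxin (Zm00001eb278150), an electron carrier, read 13.3, 4.08 and 21.0 FPKM under CK and 1.02, 1.38 and 0.739 FPKM under BV-3.

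Alpha-galactosidase 1 (Zm00001eb044860), of a family that frees galactose from raffinose-type sugars, was at 89.4, 38.5 and 157 FPKM under CK and at 13.1, 15.8 and 8.85 FPKM under BV-3. An esterase/lipase/thioesterase gene (Zm00001eb360610) was at 42.0, 25.0 and 67.7 FPKM under CK and at 8.36, 11.4 and 9.59 FPKM under BV-3. The receptor-like kinase named after Arabidopsis At1g56130 (Zm00001eb070720), of the leucine-rich repeat (LRR) class, was at 31.2, 9.99 and 18.0 FPKM under CK and at 2.90, 4.11 and 3.89 FPKM under BV-3. In the lower genes CK replicate 2 was the lowest CK library each time, so the separation from BV-3 was set by that library. The last 3 were a ubiquitin-protein ligase (Zm00001eb311590), a PVR3-like protein (Zm00001eb305230) and an ATP-dependent DNA helicase (Zm00001eb113530), with log2 differences of -3.19 ± 0.30, -4.13 ± 0.41 and -2.14 ± 0.25 without CK replicate 2. With all 6 libraries these were -2.80 ± 0.57, -3.70 ± 0.72 and -1.76 ± 0.52. The helicase was separated by little, at 14.6, 4.41 and 14.7 FPKM under CK and 4.17, 2.88 and 3.16 FPKM under BV-3. Over the 20 genes the adjusted p of edgeR lay between 0.105 and 0.14 without CK replicate 2 and between 0.483 and 0.542 with it.

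**Figure D1:**
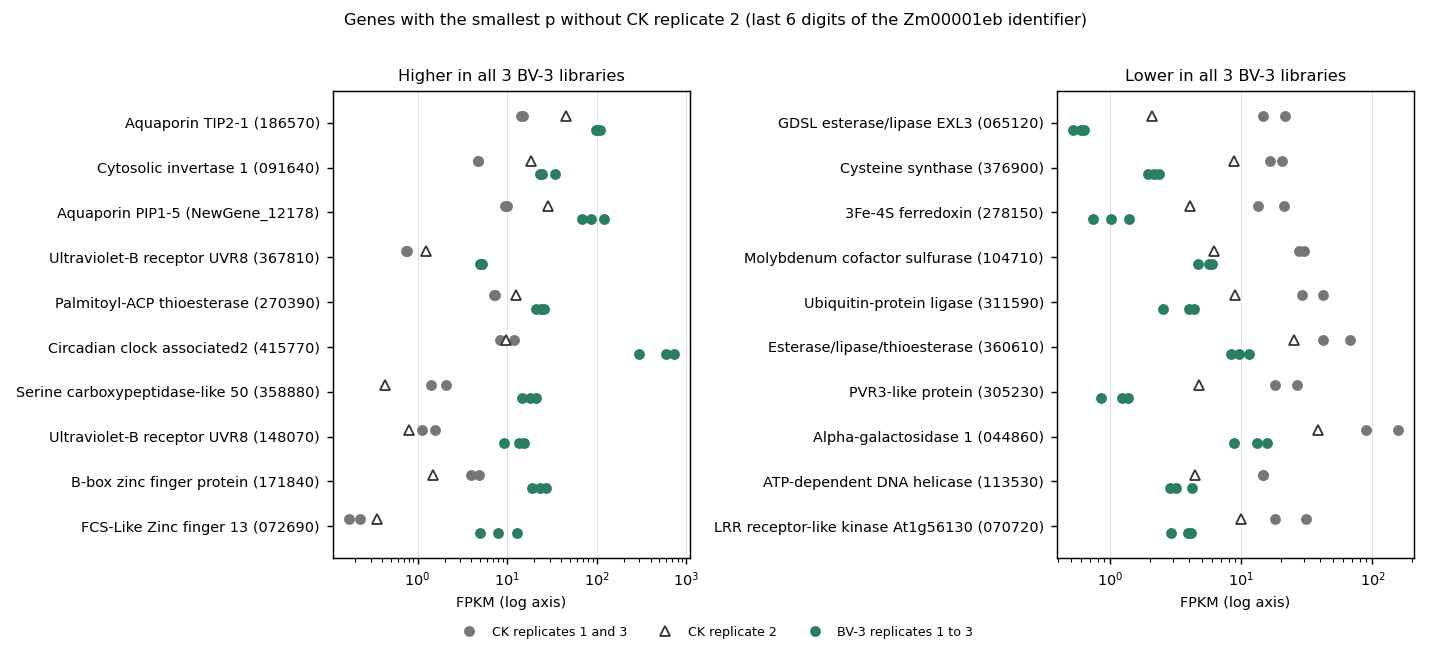
FPKM (log axis) of the 10 higher and the 10 lower genes with the smallest p, 1 point per library: filled grey for CK replicates 1 and 3, open triangles for CK replicate 2, green for the 3 BV-3 libraries. The green points lie to the right of all CK points on the left panel and to the left of them on the right panel, and CK replicate 2 is the CK point closest to BV-3 for TIP2-1 (45.0 FPKM) and for every lower gene.

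Water and nutrient transport was described next, because the aquaporin list had the largest share of separated genes among the lists with at least 20 tested members. Of 36 tested aquaporins 16 were higher in all 3 BV-3 libraries (44.4%, beside 7.92% of all genes) and 1 was lower (2.78%, beside 10.1%). The median log2 difference of the list was 1.22 with all 6 libraries and 1.43 without CK replicate 2, against -0.11 and 0.06 for all genes tested. The 16 were 8 of 13 plasma membrane channels (PIP), 4 of 12 vacuolar channels (TIP) and 4 of 8 NIP channels, a family that includes carriers of silicon. None of the 3 SIP channels, which sit on internal membranes, was separated. The PIP transcripts summed to 371, 499 and 733 FPKM under CK and to 1229, 1729 and 1189 FPKM under BV-3, so the lowest BV-3 sum lay above the highest CK sum. The NIP sums, at 109, 67.6 and 161 FPKM under CK and 303, 274 and 217 FPKM under BV-3, were separated too. The TIP sums overlapped, at 80, 426 and 172 FPKM under CK and 399, 784 and 614 FPKM under BV-3. TIP1-1 (Zm00001eb003730), an abundant vacuolar channel, overlapped likewise, at 34.2, 225 and 102 FPKM under CK and 158, 499 and 419 FPKM under BV-3.

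A set of abundant plasma membrane channels was chosen after its values were seen, because these transcripts carry much of the PIP sum. PIP1-1 (Zm00001eb074210) read 114, 72.5 and 180 FPKM under CK and 353, 418 and 291 FPKM under BV-3, a log2 difference of 1.36 ± 0.36 without CK replicate 2 and 1.59 ± 0.45 with it. PIP2-1 (Zm00001eb306380) read 93.6, 87.7 and 180 FPKM under CK and 313, 383 and 325 FPKM under BV-3. PIP1-3/PIP1-4 (Zm00001eb186900) read 47.9, 41.1 and 91.1 FPKM under CK and 147, 149 and 124 FPKM under BV-3. In these 3 channels CK replicate 3 was the highest CK library and CK replicate 2 the lowest. PIP1-2 (Zm00001eb249940), more abundant under BV-3 than PIP1-3/PIP1-4, was less clearly separated. It read 47.9, 96.0 and 167 FPKM under CK and 206, 379 and 184 FPKM under BV-3, so BV-3 replicate 3 lay just above CK replicate 3. Its log2 difference was 1.34 ± 0.58 without CK replicate 2 and 1.36 ± 0.53 with it. NIP2-1 (Zm00001eb254540), whose rice counterpart carries silicon into the root, read 13.8, 25.6 and 17.9 FPKM under CK and 31.4, 35.8 and 33.9 FPKM under BV-3, a log2 difference of 1.19 ± 0.20 without CK replicate 2 and 0.87 ± 0.31 with it. A second NIP2-1 gene (Zm00001eb194530) overlapped, at 5.27, 3.75 and 2.77 FPKM under CK and 3.28, 7.25 and 3.1 FPKM under BV-3. The only separated aquaporin on the lower side was a TIP3-1 gene (Zm00001eb404170), of a subfamily best known from seeds. It was at 7.44, 2.34 and 11.6 FPKM under CK and 0.720, 0.137 and 1.58 FPKM under BV-3. A second TIP3-1 gene (Zm00001eb221090) was higher, at 0.058, 0 and 0.193 FPKM under CK and 0.683, 0.616 and 0.345 FPKM under BV-3, with at most 31 counts in a library. The Casparian strip membrane proteins, markers of the root endodermis, summed to 0.873, 15.2 and 1.13 FPKM under CK and to 3.01, 7.22 and 4.72 FPKM under BV-3, with 1 of 6 at 0 in all 6 libraries. The summed level of the 33 root markers was 92.6 to 127 FPKM under CK and 98.5 to 104 FPKM under BV-3, with 7 of the 33 at 0. The part of root share in the aquaporin values was not tested.

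Genes of nitrogen uptake and assimilation were higher in 22 of 98 tested members (22.4%, beside 7.92% of all genes) and lower in 5 (5.10%, beside 10.1%). Against CK replicates 1 and 3 alone 27 of 100 members were higher (27.0%, beside 13.8%) and 21 lower (21.0%, beside 23.1%). The median log2 difference of the nitrogen genes was 0.35 with all 6 libraries and 0.32 without CK replicate 2. DESeq2 called 10 of them higher and none lower in both comparisons, beside 1.72% and 0.986% of all genes. A high-affinity nitrate transporter, NRT2.4 (Zm00001eb162310), read 0.131, 0 and 0 FPKM under CK and 7.45, 3.82 and 14.1 FPKM under BV-3. A nitrate reductase [NADH]-like gene (Zm00001eb037860), which turns nitrate into nitrite, read 0.604, 0.934 and 0.378 FPKM under CK and 10.8, 5.21 and 11.5 FPKM under BV-3, a log2 difference of 4.31 ± 0.60 without CK replicate 2 and 3.90 ± 0.59 with it. Ammonium transporter 1 member 2 (Zm00001eb247430) was at 0.242, 0.330 and 0.120 FPKM under CK and at 2.17, 4.43 and 1.68 FPKM under BV-3. Uptake, reduction and ammonium transport each had a member with low CK values in all 3 libraries, but these members were picked for a small p. NRT1/PTR family 6.3 (Zm00001eb023600), named after the nitrate transporter and sensor of Arabidopsis, was at 3.07, 2.12 and 6.32 FPKM under CK and at 12.8, 22.6 and 17.2 FPKM under BV-3. In the other direction, NRT1/PTR family 4.4 (Zm00001eb112180) was at 20.4, 3.42 and 30.1 FPKM under CK and at 6.87, 9.90 and 6.73 FPKM under BV-3. It lay below CK replicates 1 and 3 only, since CK replicate 2 was below every BV-3 library.

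In the sugar list 10 of 102 tested members were higher (9.80%, beside 7.92% of all genes) and 6 lower (5.88%, beside 10.1%). Sucrose synthase 2 (Zm00001eb016290), which cleaves sucrose in sink tissues, read 67.0, 7.93 and 58.0 FPKM under CK and 5.78, 14.4 and 6.86 FPKM under BV-3, a log2 difference of -2.76 ± 0.38 without CK replicate 2 and -2.27 ± 0.77 with it. A SUT1-like sucrose transporter (Zm00001eb402200) read 29.5, 5.60 and 39.9 FPKM under CK and 3.19, 4.14 and 8.05 FPKM under BV-3. Both genes were low in the BV-3 libraries and in CK replicate 2, so the groups overlapped. SWEET2b (Zm00001eb155660), a sugar transporter of the vacuole membrane in Arabidopsis, was at 103, 24.1 and 74.6 FPKM under CK and at 473, 209 and 419 FPKM under BV-3 with no overlap.

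**Figure D2:**
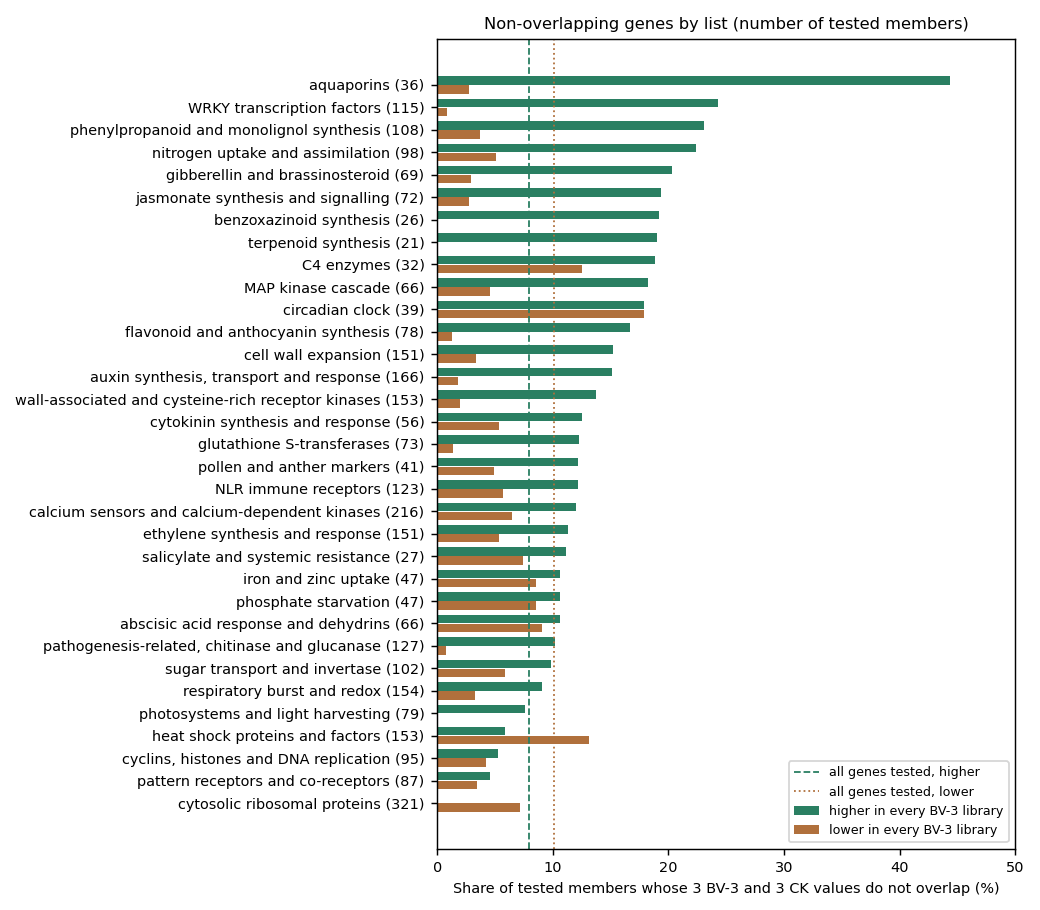
Share of tested members (%, bars from 0) whose 3 BV-3 values lie above (green) or below (brown) all 3 CK values, for the lists with at least 20 tested members, with the share of all genes tested as vertical lines at 7.92 and 10.1%. The aquaporin bar reaches 44.4%, the WRKY bar 24.3% and the phenylpropanoid bar 23.1%, and the ribosomal list has no higher member.

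The defence lists differed in how many members were separated. Every share below with all 6 libraries stands beside 7.92% higher and 10.1% lower among all genes. WRKY factors, which switch defence genes on and off, were higher in 28 of 115 tested members (24.3%) and lower in 1 (0.87%). Their median log2 difference was 0.65 with all 6 libraries and 0.69 without CK replicate 2. DESeq2 called 10 of them higher and none lower in both comparisons, beside 1.72% and 0.986% of all genes. WRKY28 (Zm00001eb388620) read 1.34, 1.93 and 1.53 FPKM under CK and 11.5, 17.9 and 6.90 FPKM under BV-3, a log2 difference of 3.13 ± 0.45 without CK replicate 2 and 2.94 ± 0.44 with it. A pair of genes annotated as WRKY24 read alike: Zm00001eb441670 was at 9.73, 3.26 and 8.53 FPKM under CK and 83.2, 62.8 and 27.6 FPKM under BV-3. The second, Zm00001eb149300, was at 9.47, 2.52 and 8.69 FPKM under CK and 75.6, 61.7 and 23.2 FPKM under BV-3. Their closely similar values in all 6 libraries could also come from reads shared between near-identical copies, which the deposited counts do not settle. WRKY factor 4 (Zm00001eb149550) was at 8.46, 5.46 and 10.3 FPKM under CK and at 31.4, 26.5 and 23.9 FPKM under BV-3. The list member with the fourth smallest p was WRKY factor 70 (Zm00001eb163840), at 15.5, 1.33 and 5.42 FPKM under CK and 1.61, 2.36 and 1.64 FPKM under BV-3, where CK replicate 2 lay below all BV-3 libraries.

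Jasmonate genes were higher in 14 of 72 tested members (19.4%) and lower in 2 (2.78%), with a median log2 difference of 0.70 with all 6 libraries and 0.42 without CK replicate 2. The 60 kDa jasmonate-induced protein (Zm00001eb060190) read 0.159, 0.0275 and 0.304 FPKM under CK and 2.73, 17.0 and 10.5 FPKM under BV-3. A jasmonate O-methyltransferase (Zm00001eb267640), which makes the volatile methyl jasmonate, read 0.622, 0.293 and 0.746 FPKM under CK and 2.74, 6.0 and 2.48 FPKM under BV-3. TIFY 11e (Zm00001eb048770), from the family that represses jasmonate responses, read 19.6, 8.22 and 18.2 FPKM under CK and 69.4, 54.8 and 30.4 FPKM under BV-3. All 3 were separated from CK, with a spread of up to several-fold among the BV-3 libraries. Lipoxygenase6 (Zm00001eb067710), of the enzyme class that oxidises fatty acids to jasmonate and other precursors, lay the other way, at 494, 104 and 259 FPKM under CK and 67.3, 95.1 and 72.5 FPKM under BV-3. Its log2 difference was -2.22 ± 0.45 without CK replicate 2 and -1.83 ± 0.66 with it.

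The ethylene list held 17 higher and 8 lower of 151 tested members (11.3% and 5.30%, beside 7.92% and 10.1% of all genes). Against CK replicates 1 and 3 alone it held 22 higher and 22 lower of 157 (14.0% each, beside 13.8% and 23.1%). With all 6 libraries the salicylate list held 3 higher and 2 lower of 27 (11.1% and 7.41%). Ethylene-responsive transcription factor 1 (Zm00001eb006180) read 0.452, 0.479 and 0.899 FPKM under CK and 6.19, 18.3 and 24.8 FPKM under BV-3, a log2 difference of 4.66 ± 0.71 without CK replicate 2 and 4.78 ± 0.62 with it. REVERSION-TO-ETHYLENE SENSITIVITY1 (Zm00001eb112110), whose Arabidopsis counterpart dampens ethylene sensing, was at 15.9, 7.16 and 18.5 FPKM under CK and at 1.53, 0.205 and 2.57 FPKM under BV-3. SAR DEFICIENT 1 (Zm00001eb335390), which drives salicylate synthesis in Arabidopsis, was at 1.77, 0.531 and 1.72 FPKM under CK and at 5.48, 3.71 and 3.38 FPKM under BV-3. The median log2 difference of the salicylate list was 0.18 with all 6 libraries and -0.10 without CK replicate 2, so its direction depended on that library.

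Signalling kinases and calcium sensors had separated members on both sides, beside 7.92% higher and 10.1% lower among all genes. MAP kinase cascade genes were higher in 12 of 66 tested members (18.2%) and lower in 3 (4.55%), and calcium sensors and calcium-dependent kinases in 26 and 14 of 216 (12.0% and 6.48%). MAP kinase kinase kinase 18 (Zm00001eb155720), whose Arabidopsis counterpart acts downstream of abscisic acid, read 5.54, 1.86 and 7.53 FPKM under CK and 16.5, 16.9 and 20.2 FPKM under BV-3. The kinase annotated as YODA (Zm00001eb155710), named after a regulator of stomatal patterning in Arabidopsis, read 13.2, 5.85 and 10.1 FPKM under CK and 39.4, 28.6 and 25.4 FPKM under BV-3. The calcium-binding protein CML19 (Zm00001eb140600) read 31.4, 17.6 and 33.9 FPKM under CK and 96.8, 95.2 and 84.8 FPKM under BV-3, a log2 difference of 1.60 ± 0.25 without CK replicate 2 and 1.81 ± 0.34 with it. CML19 was the tightest of the 3 within the BV-3 group, and none of the 3 overlapped with CK.

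Receptors gave a mixed picture, beside 7.92% higher and 10.1% lower among all genes. Nucleotide-binding (NLR) immune receptors were higher in 15 and lower in 7 of 123 tested members (12.2% and 5.69%), wall-associated and cysteine-rich receptor kinases in 21 and 3 of 153 (13.7% and 1.96%), and pattern receptors in 4 and 3 of 87 (4.60% and 3.45%). A gene annotated as RPM1 (Zm00001eb164890), the name of an Arabidopsis immune receptor, was at 1.10, 0.390 and 1.5 FPKM under CK and at 7.70, 4.72 and 6.52 FPKM under BV-3. A second receptor gene, annotated as RGA5 (Zm00001eb164940), the name of a rice immune receptor, was at 1.08, 0.260 and 1.70 FPKM under CK and at 10.8, 4.10 and 6.72 FPKM under BV-3. The pattern receptor list changed the sign of its median with CK replicate 2, at -0.07 with all 6 libraries and 0.28 without it. Against CK replicates 1 and 3 alone the wall-associated and cysteine-rich list held 26 higher and 30 lower of 157 tested members. These were 16.6% and 19.1%, beside 13.8% and 23.1% of all genes. The median of that list was 0.32 with all 6 libraries and 0.01 without CK replicate 2, so its excess of higher members depended on that library.

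Pathogenesis-related proteins, chitinases and glucanases were higher in 13 of 127 tested members (10.2%, beside 7.92% of all genes) and lower in 1 (0.787%, beside 10.1%). That 1 gene was a glucan endo-1,3-beta-glucosidase 1 precursor (Zm00001eb152300), of the enzymes that cleave beta-glucans, at 29.7, 18.1 and 30.8 FPKM under CK and 7.78, 8.97 and 12.3 FPKM under BV-3. Chitinase 11 (Zm00001eb002620), of the enzymes that break the chitin of fungal walls, was at 122, 6.21 and 121 FPKM under CK and at 30.5, 28.5 and 29.6 FPKM under BV-3. It was lower than CK replicates 1 and 3 by a log2 difference of -1.94 ± 0.23, while CK replicate 2 was the lowest of all 6 libraries. Glutathione S-transferases, which detoxify and conjugate compounds, were higher in 9 of 73 tested members (12.3%) and lower in 1 (1.37%). Glutathione transferase14 (Zm00001eb022540) was at 0, 0.0350 and 0.0721 FPKM under CK and at 10.6, 7.61 and 3.12 FPKM under BV-3. Glutathione S-transferase F10 (Zm00001eb002800) was at 3.70, 7.11 and 6.03 FPKM under CK and at 21.4, 51.4 and 20.0 FPKM under BV-3.

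**Figure D3:**
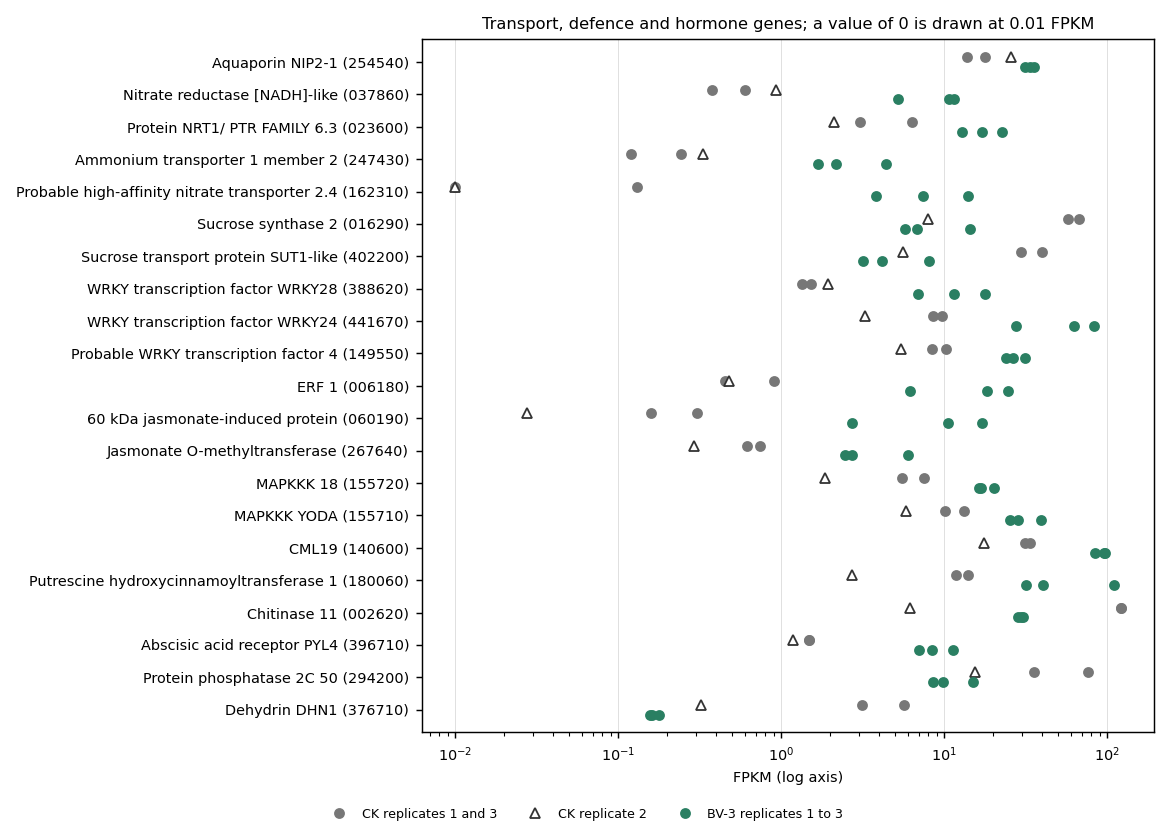
FPKM (log axis) of transport, defence and hormone genes in the 6 libraries, 1 point per library: filled grey for CK replicates 1 and 3, open triangles for CK replicate 2, green for BV-3, with values of 0 drawn at 0.01 FPKM. For chitinase 11 CK replicate 2 (6.21 FPKM) lies to the left of the 3 BV-3 points, whereas for CML19 all CK points lie to the left of the BV-3 points at 84.8 to 96.8 FPKM.

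All 4 lists of secondary metabolism held more higher than lower members. Phenylpropanoid and monolignol genes were higher in 25 of 108 tested members (23.1%) and lower in 4 (3.70%), with a median log2 difference of 0.75 with all 6 libraries and 0.73 without CK replicate 2. Putrescine hydroxycinnamoyltransferase 1 (Zm00001eb180060), which couples phenolic acids to a polyamine, read 14.0, 2.73 and 11.9 FPKM under CK and 40.4, 110 and 31.9 FPKM under BV-3. A probable 4-coumarate-CoA ligase 2 (Zm00001eb187910), at the entry to monolignols and flavonoids, read 9.60, 6.94 and 3.68 FPKM under CK and 23.3, 22.9 and 25.5 FPKM under BV-3. Cinnamoyl-CoA reductase 1 (Zm00001eb374630), of the step that commits to monolignols, read 13.1, 2.85 and 14.0 FPKM under CK and 140, 58.6 and 16.9 FPKM under BV-3. The third BV-3 library lay just above CK for this reductase, whereas the ligase was nearly level across the BV-3 libraries.

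Flavonoid and anthocyanin genes were higher in 13 of 78 tested members (16.7%) and lower in 1 (1.28%), terpenoid genes in 4 and none of 21 (19.0%), and benzoxazinoid genes in 5 and none of 26 (19.2%). The anthocyanin regulator R-S (Zm00001eb074320), a basic helix-loop-helix factor that switches on pigment genes in maize, was at 0.497, 0.0987 and 1.22 FPKM under CK and at 9.71, 6.89 and 4.49 FPKM under BV-3. The 1 lower gene was anthocyanidin 3-O-glucosyltransferase 2 (Zm00001eb322210), of the enzymes that attach glucose to the pigment, at 2.08, 0.798 and 3.23 FPKM under CK and 0.151, 0.0742 and 0.0735 FPKM under BV-3. Terpene synthase26 (Zm00001eb278400) was at 1.2, 0.773 and 3.74 FPKM under CK and at 19.1, 34.8 and 6.08 FPKM under BV-3. The benzoxazinoid member with the smallest p, a glucoside beta-D-glucosidase 2 (Zm00001eb411680) of the enzymes that free the toxin from its stored glucoside, was at 183, 5.97 and 87.4 FPKM under CK and at 14.8, 3.55 and 32.5 FPKM under BV-3, and the groups overlapped.

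Hormone and growth lists also held separated members. The abscisic acid list was near the background with 7 higher and 6 lower of 66 tested members (10.6% and 9.09%). Of its 8 tested receptor genes 5 were higher and none lower, and of its 10 tested protein phosphatases 2C none was higher and 3 were lower. These subgroups were counted after values were seen, and the other 3 receptors and 7 phosphatases overlapped. Of all genes 7.92% were higher and 10.1% lower. Against CK replicates 1 and 3 alone 6 of 8 receptors were higher and 0 lower, and 1 of 11 phosphatases was higher and 6 lower. The shares of all genes were then 13.8% and 23.1%. The abscisic acid receptor PYL4 (Zm00001eb396710) read 1.49, 1.18 and 1.48 FPKM under CK and 11.4, 8.39 and 7.00 FPKM under BV-3, a log2 difference of 2.68 ± 0.44 without CK replicate 2 and 2.75 ± 0.44 with it. The receptor PYL10 (Zm00001eb390480) read 5.96, 17.3 and 6.17 FPKM under CK and 21.2, 19.8 and 20.3 FPKM under BV-3. Both receptors were higher in every BV-3 library. Protein phosphatase 2C 50 (Zm00001eb294200), of the class that the receptors inhibit, read 35.8, 15.4 and 76.5 FPKM under CK and 9.86, 15.1 and 8.53 FPKM under BV-3. Phosphatase 2C 37 (Zm00001eb419870) read 25.8, 9.30 and 39.0 FPKM under CK and 1.40, 5.84 and 0.474 FPKM under BV-3. Dehydrin DHN1 (Zm00001eb376710), a protein of drying tissues that abscisic acid induces, read 3.13, 0.323 and 5.67 FPKM under CK and 0.161, 0.177 and 0.156 FPKM under BV-3, a log2 difference of -4.57 ± 0.45 without CK replicate 2 and -4.05 ± 1.00 with it. Phosphatase 2C 46 (Zm00001eb355760), which the list does not hold, lay the other way with no count under CK and 0.141, 0.120 and 0.276 FPKM under BV-3. Both phosphatases of the list named here and the dehydrin were lower in every BV-3 library, but CK replicate 2 was the CK value nearest to BV-3 in all 3, and for phosphatase 2C 50 it lay just above BV-3 replicate 2.

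Auxin genes were higher in 25 of 166 tested members (15.1%) and lower in 3 (1.81%), gibberellin and brassinosteroid genes in 14 and 2 of 69 (20.3% and 2.90%), and cell wall expansion genes in 23 and 5 of 151 (15.2% and 3.31%). SAUR71 (Zm00001eb052590), of the small auxin-up RNA family, was at 2.87, 1.12 and 7.12 FPKM under CK and at 37.8, 28.3 and 12.2 FPKM under BV-3. The gibberellin receptor GID1L2 (Zm00001eb279190) was at 5.90, 6.79 and 8.67 FPKM under CK and at 15.9, 18.8 and 11.2 FPKM under BV-3. Wall enzymes lay on both sides of CK. A xyloglucan endotransglucosylase/hydrolase (Zm00001eb399120), which cuts and rejoins wall polymers, was at 5.46, 8.82 and 13.6 FPKM under CK and at 34.3, 83.2 and 49.7 FPKM under BV-3, whereas a second one (Zm00001eb251370) was at 213, 79.8 and 105 FPKM under CK and at 31.3, 36.2 and 49.9 FPKM under BV-3. Expansin-B4 (Zm00001eb050500), which loosens grass cell walls, was at 15.4, 11.5 and 26.5 FPKM under CK and at 6.28, 7.76 and 3.34 FPKM under BV-3. Heat shock proteins and factors were the one list of this size with more lower than higher members apart from the ribosomal one, with 9 higher and 20 lower of 153 (5.88% and 13.1%). An Hsp20 gene (Zm00001eb026690), a small chaperone, was nevertheless higher, at 4.21, 10.7 and 11.5 FPKM under CK and 47.4, 70.1 and 33.2 FPKM under BV-3.

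Clock genes differed in both directions, 7 higher and 7 lower of 39 tested members (17.9% each), without circadian clock associated2, whose description the list's pattern did not match. The plant clock turns on morning MYB factors of the LHY and CCA1 type at dawn and evening genes such as PRR1 and GIGANTEA later in the day. The morning factors and PRR1 repress each other. LHY (Zm00001eb415760) read 34.6, 22.5 and 19.2 FPKM under CK and 1055, 436 and 860 FPKM under BV-3, a log2 difference of 4.97 ± 0.74 without CK replicate 2 and 5.04 ± 0.66 with it. A second LHY gene (Zm00001eb172450) read 119, 37.2 and 101 FPKM under CK and 1163, 470 and 1036 FPKM under BV-3. REVEILLE 2 (Zm00001eb228670), a related MYB factor, read 10.0, 3.36 and 11.4 FPKM under CK and 45.0, 30.6 and 53.3 FPKM under BV-3. These morning genes, with circadian clock associated2, were higher in all 3 BV-3 libraries, and BV-3 replicate 2 was the lowest of the BV-3 libraries each time. The models Zm00001eb415760 (LHY) and Zm00001eb415770 (circadian clock associated2) have adjoining identifiers and rank the 6 libraries in the same order. Whether they are separate genes was not tested, so their differences may not be independent.

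Of 9 tested PRR1, APRR1 and GIGANTEA genes, known from the evening, 5 were lower, none was higher and 4 overlapped. Of 13 tested LHY and REVEILLE genes 4 were higher, none was lower and 9 overlapped, and of 11 tested ELF3, ELF4 and adagio genes 1 was higher, 1 lower and 9 overlapped. These subgroups were counted after values were seen, and stand beside 7.92% higher and 10.1% lower among all genes. Against CK replicates 1 and 3 alone 8 of 10 PRR1, APRR1 and GIGANTEA genes were lower and 0 higher. Of 13 LHY and REVEILLE genes 4 were then higher and 3 lower, so the absence of lower ones rested on CK replicate 2. Of 11 ELF3, ELF4 and adagio genes 1 was then higher and 4 lower, beside 13.8% and 23.1% of all genes. The 1 higher gene of the last subgroup was adagio-like protein 2 (Zm00001eb232410), named after a family of blue-light receptors, at 19.7, 13.3 and 20.6 FPKM under CK and 26.4, 21.0 and 26.9 FPKM under BV-3. The regulator APRR1 (Zm00001eb247330), of the TOC1 type, was at 11.7, 17.1 and 15.4 FPKM under CK and at 0.979, 4.37 and 3.62 FPKM under BV-3. Pseudo response regulator 1 (Zm00001eb184870) was at 2.67, 4.54 and 4.64 FPKM under CK and at 1.04, 1.78 and 1.38 FPKM under BV-3. Gigantea2 (Zm00001eb122110) was at 4.80, 1.53 and 6.27 FPKM under CK and at 0.816, 1.33 and 0.492 FPKM under BV-3. The last 3 genes were separated from CK, while gigantea1 (Zm00001eb337600), at 11.9, 9.69 and 13.4 FPKM under CK and 9.62, 11.1 and 6.05 FPKM under BV-3, overlapped. Genes annotated as PRR95, a regulator between morning and evening, differed in direction. Zm00001eb319590 was higher at 2.40, 0.776 and 4.73 FPKM under CK and 32.6, 13.0 and 14.4 FPKM under BV-3. Zm00001eb103490, with the same annotation, was also higher without overlap, while Zm00001eb198960 overlapped. Zm00001eb092230 was lower at 11, 8.69 and 15.3 FPKM under CK and 3.81, 5.67 and 4.68 FPKM under BV-3. The labels do not give the time of harvest, so a difference in time of day between the BV-3 and the CK plants and a response to BV-3 cannot be told apart for these genes, or for others that follow the day.

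**Figure D4:**
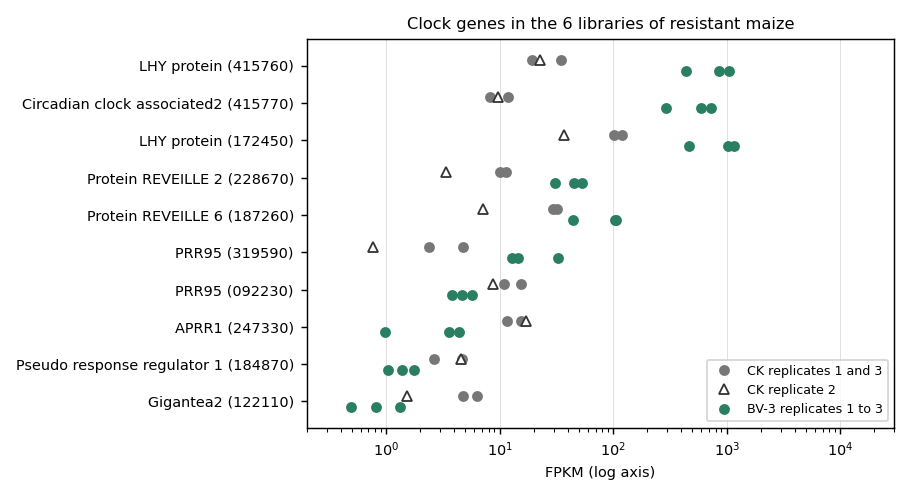
FPKM (log axis) of 10 clock genes in the 6 libraries, 1 point per library: filled grey for CK replicates 1 and 3, open triangles for CK replicate 2, green for BV-3. The upper 6 genes have all BV-3 points to the right of all CK points, up to 1163 FPKM for an LHY gene, and the lower 4 genes have them to the left.

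The photosynthesis, ribosome and cell division lists gave different answers with and without CK replicate 2. Photosystem and light-harvesting genes had a median log2 difference of 1.00 with all 6 libraries and 0.50 without it, with 6 higher and none lower of 79 tested members (7.59%, beside 7.92% of all genes for the higher side). Against CK replicates 1 and 3 alone 6 were higher (7.59%, beside 13.8%) and 15 lower (19.0%, beside 23.1%). The gene of a light harvesting chlorophyll a/b binding protein (Zm00001eb357740) read 212, 6.09 and 80.7 FPKM under CK and 1416, 544 and 2034 FPKM under BV-3. Of 10 tested models annotated as D1, D2, CP43, CP47 or a P700 apoprotein, subunits that chloroplast DNA is known to encode, all overlapped with all 6 libraries and 9 were lower than CK replicates 1 and 3, a count made after values were seen. Photosystem II protein D2 (Zm00001eb255940) was at 6.72, 0.206 and 8.37 FPKM under CK and at 0.532, 0.292 and 0.534 FPKM under BV-3, and photosystem I P700 apoprotein A2 (Zm00001eb438340) at 6.17, 0.471 and 19.4 FPKM and at 1.18, 0.346 and 1.15 FPKM. In both, CK replicate 2 was as low as the BV-3 libraries.

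Cytosolic ribosomal protein genes had a median log2 difference of -1.01 with all 6 libraries and 0.38 without CK replicate 2, and 23 of 321 tested members were lower (7.17%, beside 10.1% of all genes) and none higher. Without CK replicate 2 the median was positive, yet 43 of 323 members were lower (13.3%, beside 23.1%) and 2 higher (0.619%, beside 13.8%). Their median centred level, log2(FPKM + 1) minus the mean of the gene over the 6 libraries, was -0.47, 1.93 and -0.57 under CK and -0.97, 0.07 and 0.04 under BV-3. Cyclins, histones and DNA replication genes had a median of -0.11 with all 6 libraries and 1.46 without CK replicate 2, and 1.21 with all 6 libraries under voom with quality weights. Their median centred level was -0.94, 1.48 and -0.83 under CK and -0.71, 0.84 and 0.16 under BV-3, so BV-3 replicate 1 lay near CK replicates 1 and 3. Histone H4 (Zm00001eb320810), a core component of chromatin made in dividing cells, was at 30.3, 120 and 37 FPKM under CK and at 106, 229 and 110 FPKM under BV-3, so CK replicate 2 lay among the BV-3 libraries. Histone H2B.1 (Zm00001eb397510) was at 26.2, 86.6 and 31.8 FPKM under CK and at 65.3, 86.7 and 69.5 FPKM under BV-3. Against CK replicates 1 and 3 alone, 43 of 98 tested members of the cyclin, histone and DNA replication list were higher (43.9%, beside 13.8% of all genes) and 8 lower (8.16%, beside 23.1%). With all 6 libraries 5 of 95 were higher (5.26%, beside 7.92%) and 4 lower (4.21%, beside 10.1%).

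**Figure D5:**
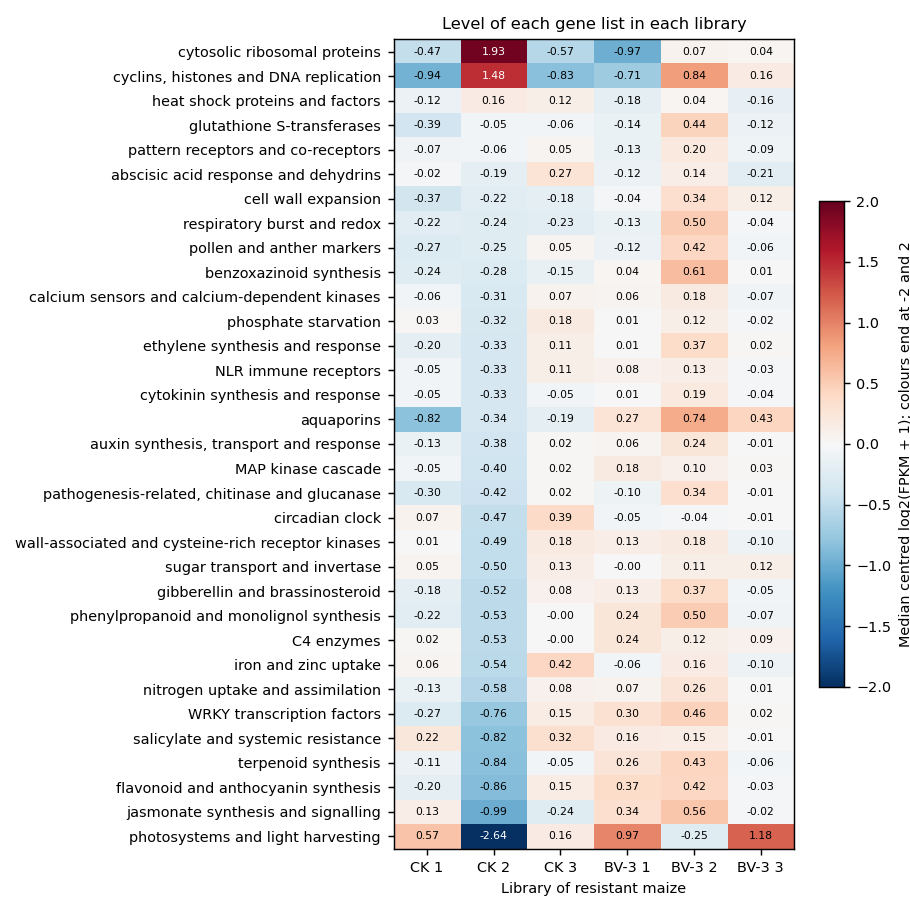
Median centred log2(FPKM + 1) of each list with at least 20 tested members (lines) in each of the 6 libraries (columns), on a colour scale that ends at -2 and 2, ordered by the value in CK replicate 2. The column of CK replicate 2 holds the extremes, -2.64 for photosystems and 1.93 for ribosomal proteins, and the aquaporin line is negative in the 3 CK columns and positive in the 3 BV-3 columns.

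The difference of the BV-3 effect between the resistant and the susceptible class was tested with all 12 libraries in 1 edgeR fit. No gene of 34291 was called (0.0%), with a smallest adjusted p of 0.232 and 4688 genes at an unadjusted p under 0.05. TIP2-1 had a log2 difference of -1.22 in the susceptible class against 2.03 here, with an adjusted p of 0.273 for the difference, and PIP1-5 one of -0.48 against 2.53, with an adjusted p of 0.232. Circadian clock associated2 had a log2 difference of 4.80 in the susceptible class, with an adjusted p of 0.59. CK susceptible replicates 2 and 3 carried 94.4 and 95% of the resistant-class markers and so went against their label. Without them and CK replicate 2 of the resistant class, the adjusted p values of these 3 genes were 0.614, 0.596 and 0.688, so no response described above was shown to be particular to the resistant class.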

How the data were processed

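Messenger RNA was sequenced as poly(A)-selected, strand-specific libraries of 150-bp paired reads, per the labels' protocols. The authors deposited 1 table with a count and an FPKM value per gene model and library, per the file headers; neither names the aligner, the counter or its strand setting. The submitters' processing notes name the build B73 RefGen v4, while the identifiers have the form of a later annotation, so no coordinates or sequences are printed. Descriptions of genes come from the table's own annotation columns, which cover 30522 of the 52932 models, 13176 of them named NewGene; none of the identifiers matched the reference table of symbols.

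Deposited counts were tested with edgeR 4.0.16 (TMM, filterByExpr with a count minimum of 10, quasi-likelihood test, Benjamini-Hochberg adjustment at 0.05) in R 4.3.3, with all 6 libraries and without CK replicate 2. The label gives replicates as separate biosamples; whether these were separate plants or pools is not stated, so p-values measure only the spread between these samples. The difference between resistance classes was the interaction term over all 12 libraries. Groups were called separated where their 3 FPKM values did not overlap. DESeq2 1.42.0, limma 3.58.1 on log2(FPKM + 1) or log2(FPKM + 0.1), voom with quality weights, other scaling and filters, a replicate block, other sets of libraries and leave-one-out fits were alternatives. The procedure was tested on simulated data.

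The rule for named genes asked for called genes first; as edgeR called none, each direction was filled to 10 with the smallest p without CK replicate 2, among described genes without overlap and with at least 5 FPKM in the higher group. In each list the 4 lowest p values among members averaging 1 FPKM or more could be named. PIP1-1, PIP2-1, PIP1-3/PIP1-4, TIP3-1, SWEET2b, the second WRKY24, TIFY 11e, REVERSION-TO-ETHYLENE SENSITIVITY1, the 4-coumarate-CoA ligase, cinnamoyl-CoA reductase 1, phosphatases 2C 37 and 2C 46, TIP1-1, SAUR71 and further clock genes fall outside this rule and were chosen after their values were seen. So do PIP1-2 and the second NIP2-1 and TIP3-1 genes. The members and lists were chosen with earlier results of these data known, and 4 list patterns were trimmed by gene name after the table was seen.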

Additional observations from a re-analysis of the deposited data

How the results depend on the processing

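No edgeR fit with the low-count filter called a gene: the count was 0 with other size factors (RLE), with annotated identifiers only and with all 12 or the 11 other libraries in 1 fit. Limma on log2(FPKM + 1) or log2(FPKM + 0.1), a separate test, also gave 0. It was 0 to 0 over the fits that left out 1 library in turn. Without the filter on low counts edgeR called 0 genes with all 6 libraries and 2 without CK replicate 2. DESeq2 called 871 genes with all 6 libraries, 2793 without CK replicate 2 and 831 in both. Voom with quality weights called 7 genes with all 6 libraries and 0 without CK replicate 2. The cause of these differences between tools was not tested. The replicate block gave 0 calls in both comparisons. Replicates that share a number had correlations of deviations of 0.405, 0.484 and -0.098, and those with unlike numbers had -0.505 to 0.358. The values for numbers 1 and 2 were thus above every unlike pair, while that for number 3 was not. The numbers were not taken as pairs because the labels do not say that they mark a shared pot, day or batch. For the class difference the count was 0 also without CK susceptible replicates 2 and 3, without CK replicate 2, and without all 3. For 89 of the genes named in the report there were 2474 values under these alternatives. Of these, 2314 kept their direction and stayed uncalled, and 160 kept their direction and were called, 154 of these by DESeq2. Most of these 89 genes were named for separated values or a small p in these same libraries. A kept direction was therefore likely from the outset and is no separate support. Other named genes were left out of this count and did not all keep their direction. The PRR95 gene Zm00001eb198960, one of these, had a log2 difference of 0.15 with all 6 libraries and -0.10 without CK replicate 2. Gene list values against CK replicates 1 and 3 alone were added after seeing the data. The planned promoter motif search was not run because no sequence was used here. Medians of log2 differences over lists moved with the setting. Over 8 settings with all 6 libraries the median lay between 1.12 and 1.65 for aquaporins, 0.43 and 0.94 for WRKY factors, 0.36 and 0.90 for jasmonate, 0.40 and 0.97 for phenylpropanoid and 0.25 and 0.51 for nitrogen genes. It lay between 0.58 and 1.32 for photosystem genes, and the sign changed for ribosomal proteins (-1.01 to 0.32), cyclins and histones (-0.11 to 1.21), salicylate (-0.08 to 0.37), pattern receptors (-0.07 to 0.15) and all genes tested (-0.11 to 0.04). Without CK replicate 2 it lay between 1.12 and 1.43 for aquaporins, 0.31 and 0.71 for WRKY, 0.30 and 0.46 for jasmonate, 0.44 and 0.73 for phenylpropanoid, 0.82 and 1.47 for cyclin and histone, 0.22 and 0.47 for ribosomal and 0.27 and 0.91 for photosystem genes.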

Other observations

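A set of genes had no count in any CK library of the resistant class and at least 10 counts in each BV-3 library, a criterion chosen after values were seen. It held 45 genes, 15 of them named NewGene, against 7 genes with the reverse pattern, and the BV-3 libraries were the deeper ones. Only 3 of the 45 reached a mean of 5 FPKM under BV-3. ILR3 (Zm00001eb383710), a basic helix-loop-helix factor known from iron homeostasis in Arabidopsis, was at 2.59, 1.90 and 3.90 FPKM under BV-3, at least 21.6-fold higher than a floor of 3 counts per CK library. It was also at 2.54 and 1.51 FPKM in CK susceptible replicates 2 and 3, whose line markers were those of the resistant class, so its absence did not extend to those CK libraries. Molybdate transporter 2 (Zm00001eb158530) was at 1.27, 1.25 and 1.11 FPKM, at least 21.3-fold higher. In the reverse direction subtilisin-like protease 4 (Zm00001eb403910) was at 2.61, 2.92 and 4.43 FPKM under CK and had no count under BV-3, at least 120-fold lower. This protease was at 3.26 and 0 FPKM in CK susceptible replicates 2 and 3, so it was also absent from 1 CK library with resistant-class markers. In the BV-3 libraries of the susceptible class it was at 0.843, 1.5 and 0.287 FPKM.

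CK susceptible replicates 2 and 3 were used in no comparison as resistant libraries. Their values are a description only: for 10 of the 10 higher named genes and 9 of the 10 lower ones, both libraries lay on the CK side of the range of the BV-3 libraries of the resistant class. Of the separated clock genes averaging 1 FPKM or more, circadian clock associated2 included, this held for 7 of 8 higher and 6 of 6 lower ones. The exceptions were the ubiquitin-protein ligase, at 2.47 and 3.38 FPKM in these libraries, and a REVEILLE 6 gene (Zm00001eb187260), at 50.2 and 50.3 FPKM. In the BV-3 libraries of the resistant class they were at 3.96, 4.37 and 2.51 FPKM and at 107, 44.7 and 103 FPKM. The same share over all separated genes was not counted, so these counts give no separate support.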
